A study of Bombyx mori with 3 samples.

Results

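The genes described here are AKH1, AKH2 and AKH3, which encode adipokinetic hormones of the silkworm Bombyx mori, and Akhr, which encodes the adipokinetic hormone receptor. They are 4 of the 17072 genes in the deposited tables and were taken by gene identifier: GeneID_100127025 for AKH1, GeneID_100174839 for AKH2, GeneID_100174925 for AKH3 and GeneID_692603 for Akhr. RNA-seq was performed on 3 libraries from the brains of wild-type larvae of the P50 strain, fed on mulberry leaves and collected on day 3 of instar 5, which is the final larval instar. All 3 libraries form 1 group with no treatment or other tissue beside it, so genes are compared with one another within the brain, and each gene across the libraries. The labels do not state whether different animals were used for each library, and the p-values and SDs below may therefore reflect technical spread only. The labels also do not say whether the corpora cardiaca, the glands attached to the back of the brain, were kept with it.

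Adipokinetic hormones are short amidated peptides that the corpora cardiaca store and release into the hemolymph. The receptor, a G protein-coupled receptor, acts through cyclic AMP and calcium in the fat body, where it triggers the release of lipid and sugar from stores. In Drosophila the receptor gene is also expressed in some neurons. The reference gene table gives AKH3 the synonym ACP, for adipokinetic hormone/corazonin-related peptide, which belongs to a related signalling system with a receptor of its own.

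AKH1 and AKH2 were abundant transcripts of the brain libraries, Akhr was expressed at a moderate and even level, and AKH3 was close to absent. AKH1 averaged 171 ± 45.3 TPM and AKH2 averaged 164 ± 32.9 TPM (SD, n = 3), where TPM is the authors' expression value scaled for gene length and library depth. Akhr averaged 32.5 ± 1.31 TPM (SD, n = 3). AKH3 averaged 0.257 ± 0.302 TPM (SD, n = 3). At the threshold used here for an expressed gene, 1 TPM or more in every library, 3 of the 4 genes passed, against 58.1% of all genes in the table.

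The library totals ranged from 17935488 to 23895452 counts. The counting error of each value below is given as an exact Poisson 95% interval from the gene's own count in that library. These intervals cover counting error only. Neuron markers (Elav, Tau, Syti, Nav and nAChRa7) were present in all libraries, with a summed level of 629.8, 604 and 633 TPM in replicates 1, 2 and 3. Glial markers (EAAT-1, EAAT-2, Ebony and Gs2) summed to 253, 249 and 258 TPM in the same order.

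AKH1, which encodes the first of the adipokinetic hormones, had 436 counts in replicate 1, 604 in replicate 2 and 861 in replicate 3. Its level was 119 TPM (interval 108 to 131) in replicate 1, 189 TPM (174 to 204) in replicate 2 and 204 TPM (191 to 218) in replicate 3. Replicate 1 was the low library: its interval did not reach those of the other libraries, whose own intervals overlapped. By mean TPM the gene ranked 853 of 17072.

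AKH2, which encodes a second hormone of the family, had 662, 834 and 1118 counts in replicates 1, 2 and 3. Its level was 126 TPM (116 to 136) in replicate 1, 181 TPM (169 to 194) in replicate 2 and 184 TPM (174 to 196) in replicate 3. The low library was again replicate 1, and replicates 2 and 3 were close to each other. The gene ranked 895 of 17072.

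AKH3, the ACP gene, was covered by 1 count in replicate 1, 6 in replicate 2 and 1 in replicate 3. These counts correspond to 0.0883 TPM (0.00223 to 0.492), 0.605 TPM (0.222 to 1.32) and 0.0766 TPM (0.00194 to 0.427). The intervals of all 3 libraries overlapped. With a total of 8 counts, AKH3 lay under the minimum of 15 set for the test of differences between libraries. It ranked 12009 of 17072.

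Akhr, the receptor gene, had 642 counts in replicate 1, 525 in replicate 2 and 690 in replicate 3. Its level was 34.0 TPM (31.4 to 36.7), 31.8 TPM (29.1 to 34.6) and 31.7 TPM (29.4 to 34.1). No library stood apart, and the highest value was 1.07 times the lowest, against 1.71 times for AKH1 and 1.46 times for AKH2. The gene ranked 5267 of 17072, close to the median of the 9925 expressed genes, which was 35.3 TPM.

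**Figure D1:**
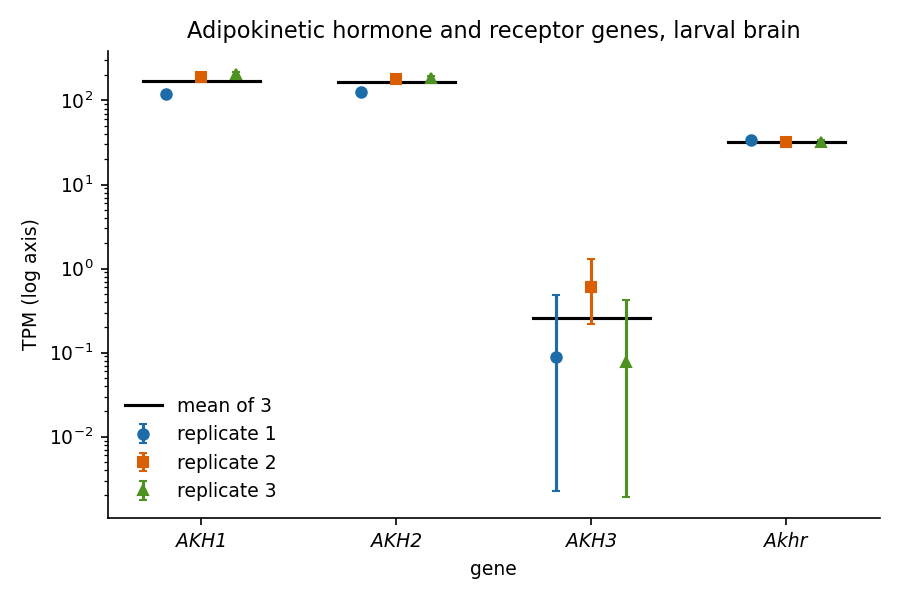
TPM (log axis) of each gene in the 3 larval brain libraries; points are libraries, bars are exact Poisson 95% intervals from the counts, and black lines are means. AKH1 and AKH2 lie between 119 and 204 TPM with replicate 1 lowest, Akhr lies between 31.7 and 34.0 TPM, and AKH3 stays under 1 TPM with wide intervals.

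Set in order by mean TPM, AKH1 and AKH2 came first and could not be separated, followed by Akhr and then AKH3. AKH1 was 0.947, 1.04 and 1.11 times AKH2 in replicates 1, 2 and 3, so the order of the pair differed between libraries. The difference of AKH1 from AKH2 was 0.04 ± 0.11 on the log2(TPM + 1) scale (SD, n = 3), which is smaller than its spread. No value of AKH1 or AKH2 overlapped one of Akhr, and no value of Akhr overlapped one of AKH3.

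The hormone genes were then compared with the receptor gene within each library. AKH1 stood 3.51, 5.94 and 6.44 times above Akhr in TPM in replicates 1, 2 and 3, and AKH2 stood 3.70, 5.70 and 5.82 times above it. The summed level of the 3 hormone genes was 245, 370.4 and 389 TPM, which was 10.4 ± 2.76 times the level of Akhr (SD, n = 3). Most of the difference between libraries in these ratios came with the hormone genes, since Akhr itself varied by 4.03% (coefficient of variation) against 26.5% for AKH1 and 20.1% for AKH2.

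On the log2(TPM + 1) scale, which understates differences of low genes, AKH1 exceeded Akhr by 2.32 ± 0.47 and AKH2 exceeded it by 2.28 ± 0.36 (SD, n = 3), each in 3 of 3 libraries. AKH3 lay below Akhr in 3 of 3 libraries, at -4.76 ± 0.36. The exact sign-flip permutation test over the 3 libraries (two-sided) gave p = 0.25 for each pair and 0.25 after Benjamini-Hochberg adjustment over the 3 pairs. That is the smallest p that 3 libraries allow, so the test cannot pass a threshold of 0.05 in this design. Per length and over all libraries, AKH3 reached 0.718% of the level of Akhr, with an exact 95% interval of 0.310% to 1.42% from 8 against 1857 counts. By library it was 0.260%, 1.91% and 0.242% in replicates 1, 2 and 3, and replicate 2 held most of the counts. Without replicate 2 it was 0.2503% (interval 0.0303% to 0.906%), from 2 against 1332 counts.

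The gap between AKH1 and Akhr is a gap in transcripts per length, not in reads. For AKH2 the gap was smaller in reads than per length, and AKH3 lay below Akhr in both. The ratio of counts to TPM implies that the counted length of Akhr was 5.16 times that of AKH1, with AKH2 at 1.44 times and AKH3 at 3.10 times. CPM values, raw counts scaled to a fixed library total with no division by length, averaged 30.6 ± 7.53 for AKH1, 42.2 ± 7.67 for AKH2 and 30.2 ± 1.90 for Akhr (SD, n = 3). On log2(CPM + 1) the difference of AKH1 from Akhr was -0.01 ± 0.46 and changed sign between libraries, at -0.54 in replicate 1, 0.20 in replicate 2 and 0.31 in replicate 3 (exact permutation p = 1). AKH2 remained above Akhr on CPM by 0.46 ± 0.36, but by 0.04 in replicate 1. Of AKH1 and AKH2, AKH2 gave the more reads: AKH1 had 0.659, 0.724 and 0.770 times its counts in replicates 1, 2 and 3.

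**Figure D2:**
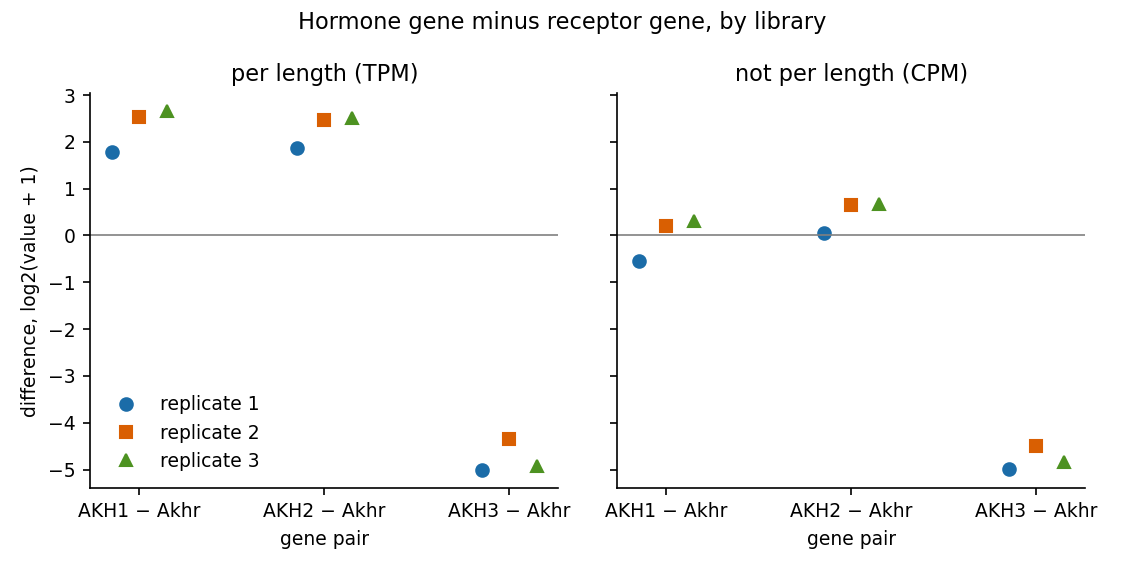
Difference of each hormone gene from Akhr in each library, on log2(TPM + 1) at left and log2(CPM + 1) at right; the grey line marks equal values. Per length, AKH1 and AKH2 lie above Akhr in all 3 libraries, while on CPM the AKH1 difference lies below 0 in replicate 1 and above 0 in replicates 2 and 3.

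The spread between libraries separated AKH1 and AKH2 from the receptor gene, while AKH3 lay under the count minimum for testing. Counts of AKH1 and AKH2 differed between the libraries by more than counting noise (chi-square test on TMM-scaled library sizes, Benjamini-Hochberg adjusted over 11373 genes, adjusted p = 1.06e-17 for AKH1 and adjusted p = 1.3e-13 for AKH2). Akhr did not pass, at an adjusted p of 0.269. At this depth 53.9% of the genes tested passed, so a call of this kind is common and compares these libraries, not conditions. Replicate 1 decided both calls: without it the adjusted p was 0.494 for AKH1 and 0.990 for AKH2, and the number of genes called dropped to 2017, against 6135 with all libraries.

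The biological coefficient of variation (BCV), the spread between libraries beyond counting noise as estimated in edgeR, was 26.7% for AKH1, 19.8% for AKH2 and 3.11% for Akhr. Of 1988 genes with a mean count like that of AKH1, 95.6% had a lower BCV, and their median was 6.94%. For AKH2, 94.6% of 2242 such genes had a lower BCV. For Akhr, 23.3% of 1965 such genes did. Without replicate 1, the ratio of BCV to its trend over abundance dropped to 0.130 for AKH1, against 1.68 with all libraries. For AKH2 it was 0.0956 without replicate 1, against 1.40 with all libraries.

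**Figure D3:**
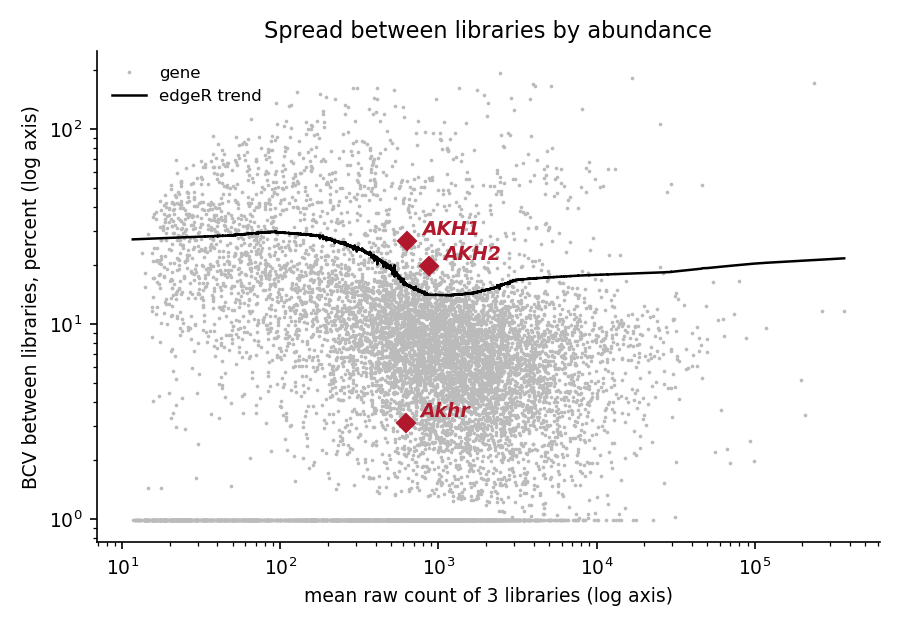
BCV between libraries in percent against mean raw count for 10173 genes (both axes log; grey points are genes, the black line is the edgeR trend, and the row of points at the bottom is at the lowest value the estimate can take). AKH1 (26.7%) and AKH2 (19.8%) lie above the trend and Akhr (3.11%) lies below it and among the less variable genes of its abundance.

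In replicate 1 AKH1 lay 0.48 and AKH2 0.36 below their own means over 3 libraries on the log2(TPM + 1) scale. Among the 9925 expressed genes, 4.70% were as low as AKH1 or lower by this measure and 6.87% were as low as AKH2. The median deviation of all expressed genes in replicate 1 was -0.01. TPM is scaled to one total in every library, so a shift common to all genes could not be seen in this value. In bulk tissue, fewer cells that make a hormone and less of its RNA per cell cannot be told apart.

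Most other peptide genes of neurosecretory cells were highest in replicate 1, where AKH1 and AKH2 were lowest. Replicate 1 held the highest value for 25 of the 34 expressed genes of this list, and the lowest for 4 of them, Bbx-b1, Bbx-b2, Bbx-b6 and PBAN. Most genes of the list are members of the bombyxin family (Bbx-), so these counts largely describe that family. Among all expressed genes replicate 1 was highest for 38.3% and lowest for 42.2%. Crz, which encodes corazonin, a peptide related to the adipokinetic hormones, stood at 304, 270.1 and 248 TPM in replicates 1, 2 and 3. The insulin-like bombyxin genes showed the same order in Bbx-g1 (409.9, 370.3 and 359.5 TPM) and Bbx-c1 (348, 318 and 311 TPM), and replicate 1 was also highest for Bbx-a7 (277, 258 and 258 TPM). The counts of 22 of the 35 tested genes of the list differed between libraries, a share near the 53.9% of all genes tested.

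Summed markers of several other tissues also had their lowest level in replicate 1. The corpora allata, which adjoin the corpora cardiaca, were represented by 2 genes with a summed level of 31.8, 54.0 and 61.3 TPM in replicates 1, 2 and 3. Nearly all of it came from CYP15C1 (symbol P450), an epoxidase of juvenile hormone synthesis, at 31.3, 53.2 and 61.1 TPM. Jhamt, a methyltransferase of the same pathway, stayed under 1 TPM, at 0.488, 0.837 and 0.151 TPM, with replicate 3 lowest. The 6 prothoracic gland genes summed to 22.4, 32.8 and 31.0 TPM, of which Cyp306a1 (13.8, 19.6 and 22.7 TPM) was the highest. Cyp302a1 was level at 4.48, 4.56 and 4.49 TPM, and Cyp315a1 was lowest in replicate 3 (2.53, 3.64 and 2.28 TPM). Cyp307a1 was lowest in replicate 1 and highest in replicate 2 (0.957, 5.02 and 1.54 TPM). Of the other genes of this list, Nvd stayed under 0.1 TPM and torso was at 0 in replicates 2 and 3. The 5 epidermis and trachea genes summed to 1684, 29084 and 31671 TPM in that order, and each was lowest in replicate 1. Cyp4g25 (57.4, 17071 and 21774 TPM) supplied most of the sum in replicates 2 and 3, but not in replicate 1. Cyp4g25 and CSP3 were highest in replicate 3, and CPH27, CPR46 and CPR148 in replicate 2. The part of these tissues in the difference between libraries of AKH1 and AKH2 was not tested.

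The summed hemocyte and fat body lists were also lowest in replicate 1 and highest in replicate 3. The suboesophageal ganglion list was high in replicate 3 only, and the summed muscle list followed another order. The 4 muscle genes summed to 4310, 8313 and 3978 TPM in replicates 1, 2 and 3, with replicate 3 lowest. Single genes of this list differed in order. A1 (1862, 4636 and 1907 TPM) was lowest in replicate 1, and MLC-2 (889, 2126 and 753 TPM) in replicate 3. AK (1493, 1496 and 1265 TPM) was also lowest in replicate 3, while Tm (65.1, 55.5 and 53.5 TPM) was highest in replicate 1. Markers of the suboesophageal ganglion, PBAN and Scr, summed to 1.17, 1.42 and 31.5 TPM, and Scr had no count in replicate 1. PBAN had 9, 9 and 265 counts, so replicates 1 and 2 were alike. The 3 hemocyte genes summed to 76.4, 118 and 221 TPM and the 6 fat body and hemolymph genes to 62.4, 82.0 and 107.5 TPM, of which Tf, the transferrin gene, supplied 59.5, 77.95 and 101.8 TPM. Replicate 3 was also the highest library for AKH1 and AKH2, though close to replicate 2. In the fat body list Lp-c12 was at 0 in replicates 2 and 3, and LP3 was lowest in replicate 2 (0.377, 0.323 and 0.409 TPM). The part of these lists in the difference was likewise not tested. No marker of the corpora cardiaca other than the hormone genes was available.

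**Figure D4:**
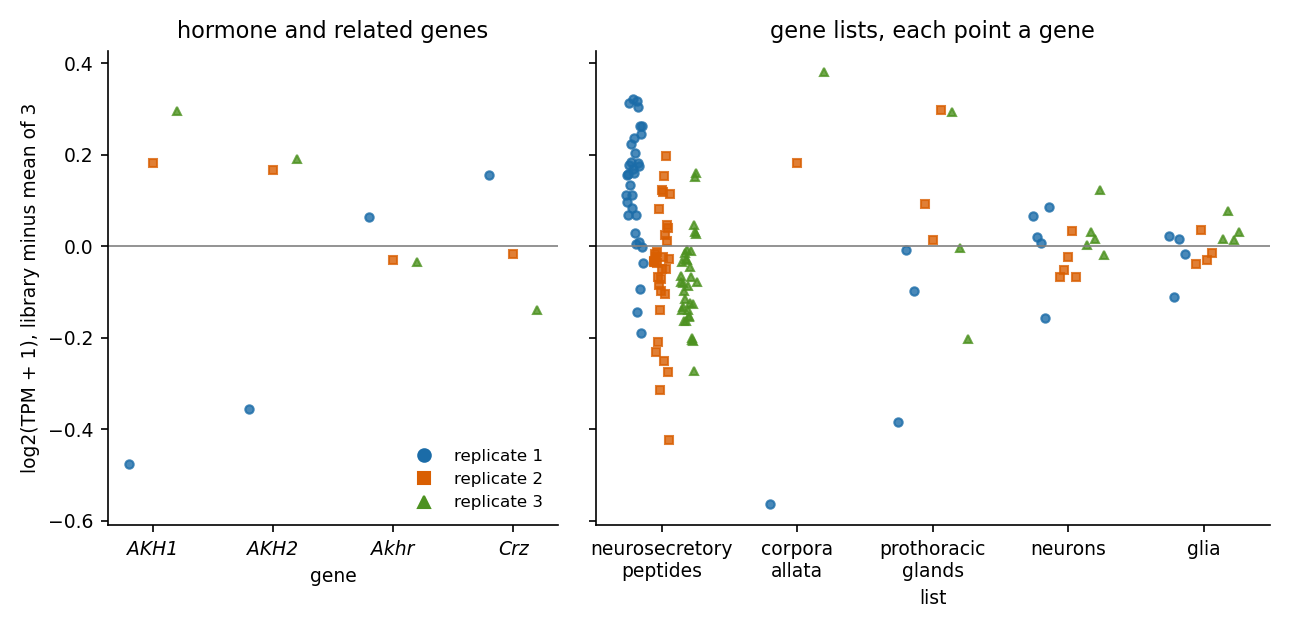
Each library's log2(TPM + 1) minus the mean of all 3, for AKH1, AKH2, Akhr and Crz at left and for the expressed genes of 5 lists at right (each point a gene in a library; PBAN, which has a large deviation in replicate 3, is left out). Replicate 1 lies at -0.48 for AKH1 and -0.36 for AKH2, and is lowest also for the corpora allata gene, while it is highest for most neurosecretory peptides.

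Against the peptide genes of neurosecretory cells, AKH1 and AKH2 were in the upper part of the range and AKH3 at its bottom. Of 36 such genes, most of them bombyxins, 9 had a higher mean TPM than AKH1, and the same number exceeded AKH2. The median of the list was 70.1 TPM, against 6.59 TPM for all genes of the table. Only Bbx-b11, a bombyxin gene at 0.367, 0 and 0.319 TPM, had a lower mean than AKH3 in this list.

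Akhr was near the top of the peptide receptors. Of 44 matched receptor genes, 33 were expressed, against 58.1% of all genes, with a list median of 4.70 TPM. The insulin receptor InR, which is a receptor kinase and not coupled to G proteins, was the single gene above Akhr, at 42.3, 50.6 and 50.1 TPM in replicates 1, 2 and 3. Below it came FaR (26.2, 25.5 and 26.3 TPM), NGR-A24 (22.6, 21.8 and 22.3 TPM) and NGR-B1 (19.8, 18.9 and 20.5 TPM), and none of these values reached the lowest value of Akhr. Counts of 11 of the 41 receptor genes tested differed between libraries, against 53.9% of all genes tested, and FaR, NGR-A24 and NGR-B1 were not among them. The test has less power at low counts, and many receptor genes had few, so this share does not measure evenness between libraries. Akhr is not counted in this list.

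The related corazonin and ACP systems paired hormone and receptor levels differently. For corazonin the hormone gene Crz averaged 274 ± 28.6 TPM (SD, n = 3), and its receptor gene NGR-A21 measured 1.46, 2.25 and 1.51 TPM in replicates 1, 2 and 3. For ACP both sides were low: beside AKH3, the gene NGR-A29, which carries the receptor name Acpr-2 as a synonym, measured 0.130, 0.373 and 0.170 TPM from 10 counts in all. Both AKH3 and NGR-A29 had their highest value in replicate 2, at counts too low for a comparison between libraries. Among these 3 systems Akhr was the receptor gene with the highest TPM.

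**Figure D5:**
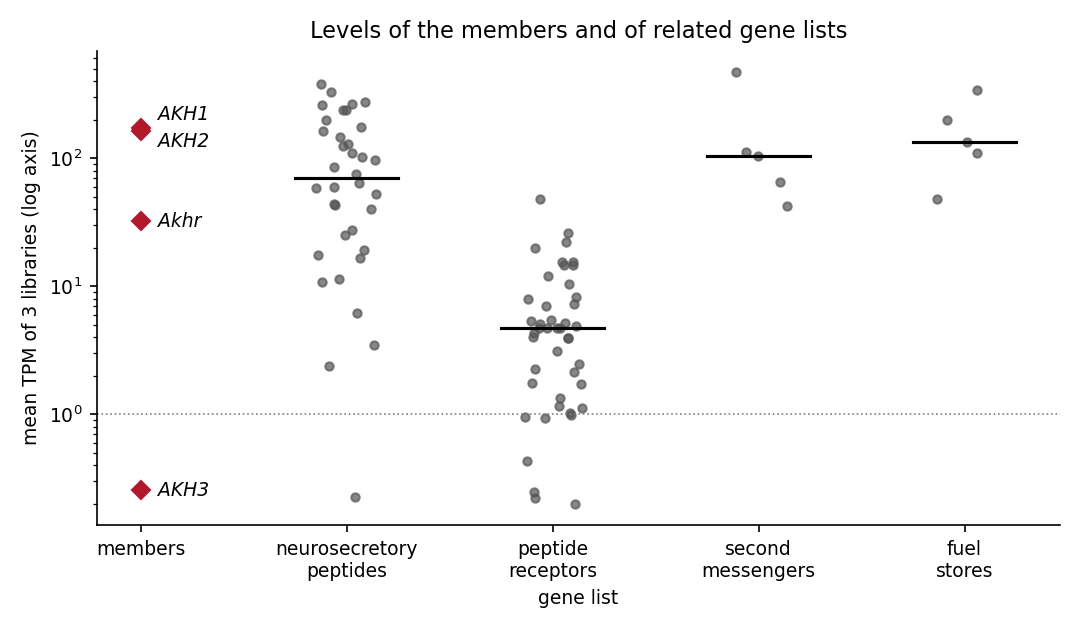
Mean TPM over 3 libraries (log axis) of the hormone and receptor genes (red) and of 4 gene lists (grey points, with black lines at the list medians; the dotted line marks 1 TPM). AKH1 and AKH2 lie above the median of the neurosecretory peptides (70.1 TPM), Akhr lies above all peptide receptors but one, and AKH3 lies near the lowest genes shown.

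Second messenger genes of G protein-coupled receptors in general were expressed in the brain wherever they could be matched by name. All 5 matched second messenger genes, of 37 names sought, passed 1 TPM in every library, against 58.1% of all genes, with a list median of 104 TPM. No gene of Gs, adenylyl cyclase or the protein kinase A catalytic subunit was among them. Go, a G protein alpha subunit, measured 422, 472 and 510.1 TPM in replicates 1, 2 and 3. Gq, the alpha subunit that activates phospholipase C, measured 63.1, 65.0 and 67.9 TPM. The calcium-dependent kinase CaMKII measured 109, 112 and 114 TPM, and the protein kinase A regulatory subunit Pka-r2 measured 94.99, 116 and 102 TPM. CREB, a transcription factor of the cyclic AMP pathway, was the lowest of the list at 42.5 ± 5.38 TPM (SD, n = 3). All 5 genes lay above Akhr.

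Genes of fuel stores and their use were likewise expressed, 5 of 5 matched from 30 names, against 58.1% of all genes, at a list median of 134 TPM. Glyp, the glycogen phosphorylase that releases sugar from glycogen, measured 330.4, 351 and 345 TPM in replicates 1, 2 and 3. Plin, a perilipin of lipid droplets, measured 127, 133 and 143 TPM. Tret1, a trehalose transporter, measured 161, 274 and 163 TPM, and Lpr, a lipophorin receptor, 98.9, 112 and 116 TPM. The factor FoxO (LOC100529235) averaged 48.3 ± 7.33 TPM (SD, n = 3). Replicate 1 had the lowest value for all 5 genes of each of these lists, against 42.2% of all expressed genes. The margins were smaller than for AKH1: the median deviation in replicate 1 was -0.13 for second messengers and -0.14 for fuel genes on log2(TPM + 1). Of the 14 names of peptide-processing enzymes sought, none was matched.

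Genes most like each member in level and library pattern were taken by the smallest Euclidean distance of log2(TPM + 1) over the 3 libraries, among 2243 genes with a descriptive symbol. AKH1 and AKH2 were close to each other, at a distance of 0.176, and no other gene with a symbol was closer to AKH2. CPH43, a cuticular protein gene at 115, 197 and 199 TPM, was nearer to AKH1, at 0.0884. Next for AKH1 came Fpps2, a farnesyl diphosphate synthase (132, 227 and 231 TPM), and Cpr (100.02, 220 and 237 TPM). For AKH2, CPH43 was followed by Samui (144, 161 and 175 TPM) and Rad23 (157, 180 and 191 TPM). Akhr was nearest to Tfap4, an AP-4 type transcription factor (33.6, 31.4 and 31.4 TPM), GC-b1, a guanylyl cyclase subunit (33.2, 32.1 and 32.7 TPM), and Varp (34.9, 30.4 and 32.3 TPM). For AKH3 the nearest were CPT3, PGRP-S5 and an-0895, all under 1 TPM in every library, where the pattern rests on a few counts.

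On the reference assembly ASM3026992v2, used here for names and gene order only, AKH1 and AKH2 are direct neighbours with no annotated gene between them. LOC101744220, next to AKH2, had the same order of libraries over a narrow range, at 120, 122 and 128 TPM in replicates 1, 2 and 3. LOC101744462, next to AKH1, had another order, with replicate 1 highest (39.5, 34.2 and 36.5 TPM). Any sharing of reads between AKH1 and AKH2 was not measured. Akhr has 3 annotated transcripts against 1 for each hormone gene. Its span overlaps that of LOC119630001, a protein-coding gene with 2, 2 and 4 counts. Whether exons are shared, and how reads on any shared stretch were assigned, was not examined. A long noncoding RNA gene that overlaps the span of Akhr was not matched among the genes counted. AKH3 lies between LOC733130 (2.47, 5.59 and 1.61 TPM) and LOC101744606 (24.1, 25.6 and 24.6 TPM).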

How the data were processed

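Per the labels, total RNA from silkworm brains was extracted with Trizol and converted to libraries using the NEBNext Ultra kit. HISAT2, featureCounts and Trim Galore are listed in the submitters' processing notes. Their versions, the build, the annotation and the strandedness of counting were not found in the labels or headers. The deposited raw count table holds whole numbers per gene; the deposited TPM table holds the authors' values, which add up to 1000000 in every library. Counted lengths implied by counts over TPM were the same in all libraries for 12241 of 12241 genes (relative tolerance 1e-06). Names came from a RefSeq gene table (14944 of 17072 identifiers matched).

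Levels are deposited TPM, with no values dropped. Counts were tested for equal share over libraries by chi-square (2 degrees of freedom) for genes with at least 15 counts in all, threshold 0.05. Without that minimum, genes under 15 counts were tested by an exact multinomial test. BCV used edgeR 4.0.16 with an intercept-only design after its low-count filter; genes of like abundance lie within 0.5 log2 units of mean count. DESeq2 1.42.0 gave alternative scaling and dispersions. R 4.3.3, Python 3.11.15 and SciPy 1.17.1 were used. The chi-square test and the edgeR estimate of a common BCV were checked on simulated counts. The permutation test, the exact multinomial test and the exact intervals were not.

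The members, gene lists, tests and alternatives were chosen with earlier results of these data known. Named genes are the 4 members, the 4 highest of each list (all, where few) and the 3 nearest genes to each member; CREB and FoxO, the fifth of 5 in their lists, marker genes, neighbours, and the genes of low replicate 1 or low level within a list were named after their values were seen. A match of the synonym AT to serpin-1 was dropped from the peptide list. Every sample belonged to 1 group, so no comparison between groups was made, and no sequence of these genes was used here.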

Additional observations from a re-analysis of the deposited data

How the results depend on the processing

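Of the alternatives computed, 85 kept the direction and the side of the threshold, or a value within the margin set for it, while 26 moved, 2 lost a call and 1 reversed. Those that kept their direction include AKH2 minus Akhr at 0.46 on log2(CPM + 1), against 2.28 per length, and values within their margin include AKH3 at 0.0824 TPM without replicate 2, against 0.257 TPM. In an alternative chosen after seeing the data, AKH3 ranged from 0.2503% (without replicate 2) to 1.00% of Akhr per length when each replicate was left out. Mean levels on other scales were 30.6 CPM, 30.6 TMM-scaled CPM and 624 size-factor-scaled counts for AKH1, 42.2, 42.3 and 862 for AKH2, and 30.2, 30.2 and 614 for Akhr; AKH3 had 2.92 scaled counts. The scales differ in unit and length correction. The difference of AKH1 from Akhr reversed to -0.0107 on log2(CPM + 1), since CPM is not divided by length. Leaving out each replicate gave 154 to 196 TPM for AKH1, 154 to 183 for AKH2, 0.0824 to 0.347 for AKH3 and 31.7 to 32.9 for Akhr. The hormone minus receptor differences then ranged from 2.16 to 2.59 for AKH1, from 2.17 to 2.49 for AKH2 and from -4.97 to -4.64 for AKH3. Genes called by the chi-square test ranged from 2017 (without replicate 1) to 5198, and the adjusted p from 1.7e-17 to 0.494 for AKH1, 2.9e-12 to 0.990 for AKH2 and 0.144 to 0.853 for Akhr. BCV over trend ranged from 0.130 to 1.97 for AKH1, 0.0956 to 1.48 for AKH2 and 0.0693 to 0.302 for Akhr. The percentile by mean TPM ranged from 94.4 to 95.8 for AKH1, 94.3 to 95.4 for AKH2, 23.4 to 31.96 for AKH3 and 68.4 to 69.8 for Akhr. Among genes at 1 TPM in at least 1 library it was 92.2 for AKH1, 91.8 for AKH2 and 51.9 for Akhr; AKH3 is not one of them. Among protein-coding genes it was 93.5, 93.2, 19.6 and 60.1 for AKH1, AKH2, AKH3 and Akhr. By CPM it was 64.97 for AKH1, 70.9 for AKH2 and 64.7 for Akhr. Without the count minimum, AKH3 had an exact multinomial p of 0.0247 for a difference between libraries and an adjusted p of 0.0568. No paired analysis was possible because all samples belong to 1 group. At 8 counts in all, the depth does not allow an order of libraries for AKH3.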

Other observations

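Among the peptide receptors, Dhr-1, which carries the receptor name DHR as a synonym and was chosen after its values were seen, stood at 0.368, 18.8 and 24.8 TPM in replicates 1, 2 and 3. Its counts differed between libraries in the chi-square test over all genes, and replicate 1 was also the lowest library for AKH1 and AKH2, by a far smaller margin.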
